A study of Mus musculus with 6 samples.

Results

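The 10 genes described here carry out antigen presentation on MHC class II: the chains H2-Aa, H2-Ab1 and H2-Eb1, the invariant chain Cd74, the peptide editors H2-DMa, H2-DMb1, H2-DMb2, H2-Oa and H2-Ob, and the transactivator Ciita. They were picked by gene symbol, and all 10 were found among the 55011 symbols of the count table. RNA sequencing had been done on whole visceral adipose tissue of male C57BL/6 mice aged 30 weeks, sampled at zeitgeber time 0 (the start of the light phase) after 14 weeks on a low-fat and 16 weeks on a high-fat diet. All mice carried Foxp3.Cre-YFP, in which the promoter of the regulatory T cell factor Foxp3 drives Cre recombinase. The 3 Bmal1WT libraries came from Foxp3.Cre-YFP bmal1WT mice and the 3 Bmal1KO libraries from Foxp3.Cre-YFP bmal1KO mice, so loss of the clock gene Bmal1 (Arntl) is aimed at Foxp3-expressing cells, a small part of this tissue. The comparison asks how class II transcripts in fat after a high-fat diet differ between those genotypes.

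Class II molecules show peptides from engulfed or membrane proteins to CD4 T cells. An alpha and a beta chain pair in the endoplasmic reticulum with the invariant chain, which blocks the groove and steers the complex to endosomes; there proteases trim it, H2-DM exchanges the remaining fragment for peptide, and H2-O, made mainly by B cells, restrains H2-DM. Dendritic cells, B cells and macrophages are the main carriers, and in obese fat macrophages are abundant. CIITA binds no DNA itself and switches the genes on through factors seated on the X and Y boxes of their promoters. C57BL/6 mice transcribe H2-Eb1 but, through a defect in H2-Ea, do not assemble the I-E molecule.

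Total counts were 6514620 to 9529198 per library, and at least 1 count was found for between 19009 and 20145 genes in 5 libraries and for 30019 in Bmal1KO replicate 1, the shallowest. Levels are given as CPM, counts scaled to the size of the library, and 3 values in a row are those of replicates 1 to 3. Genes of epididymis and testis, 10 in number, summed to 228 CPM in Bmal1WT replicate 1, while the sum was at most 2.26 CPM elsewhere. The adipocyte genes Fabp4, Cidec and Adipoq were present in all 6 libraries, Fabp4 at 5686 to 10166 CPM, and the summed level of the 8 adipocyte markers was lowest in Bmal1KO replicates 2 and 3. The targeted gene Arntl gave 273, 242 and 373 counts for Bmal1WT against 324, 289 and 314 for Bmal1KO. Scaled to library size it was not lower in Bmal1KO (log2 fold change 0.27, SE 0.22, edgeR adjusted p = 0.719). In whole tissue these counts thus give no check of the labels. Foxp3 was without counts in every Bmal1WT library and had 3, 0 and 2 in Bmal1KO.

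Of the chain and editor genes, 6 share a sequence layout in their promoters, shown here because the CIITA complex is documented to dock at X and Y boxes. Whether it docks at these stretches was not tested. RefSeq promoter windows (GRCm38.p6, 250 bases before to 50 after the start) matched 7 of the 10 genes: H2-Aa, H2-Eb1, H2-DMa, H2-DMb1, H2-DMb2, H2-Oa and H2-Ob. A Y box core, ATTGG, was found on either strand in the windows of all 7, and in 37.4% of all 32851 windows. An X box core CCNNGNNAC followed by ATTGG after 5 to 40 bases was found for H2-DMb1, H2-Oa and H2-Ob, and in 2.04% of windows. A looser form, written after these promoters had been read, was AAC followed after 25 to 28 bases by ATTGG; it was found for 6 of the 7, H2-DMa being without it, and in 2.49% of windows. All searches covered both strands, and the Y core lies within each of the longer patterns. The 5 stretches below run 5′ to 3′ on the strand of the gene, with AAC and ATTGG in capitals.
H2-Aa, chr17:34287867-34287910, minus strand: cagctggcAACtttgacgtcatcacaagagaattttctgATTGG
H2-Eb1, chr17:34305770-34305812, plus strand: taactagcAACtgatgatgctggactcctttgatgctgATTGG
H2-DMb2, chr17:34145120-34145163, plus strand: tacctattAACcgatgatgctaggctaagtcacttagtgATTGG
H2-Ob, chr17:34238812-34238852, plus strand: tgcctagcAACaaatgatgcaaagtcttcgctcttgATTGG
H2-Oa, chr17:34092297-34092340, plus strand: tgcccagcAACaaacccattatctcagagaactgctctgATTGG
Their AAC begins between 74 and 121 bases before the RefSeq start, nearest for H2-Oa and farthest for H2-DMb2. Gene limits given below are those of GENCODE, whose starts can differ. The H2-DMb2 stretch lies inside the GENCODE limits of that gene, and the H2-Oa stretch ends on the first base of its gene. The layout was found both in genes that were high in Bmal1KO replicate 2 and in genes that were high in replicate 3, described next.

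No class II gene passed edgeR's quasi-likelihood test between genotypes (smallest adjusted p = 0.414, for H2-Oa), and no gene of the 13859 tested did (0% called at an adjusted p under 0.05, with 1290 at an unadjusted p under 0.05). DESeq2 called 60 genes and limma voom 0, with no class II gene among them. The members did not form 1 group. H2-Aa, H2-Ab1, H2-Eb1, Cd74, H2-DMa and Ciita were highest in a single library, Bmal1KO replicate 2, at 1.77 to 2.69 times the highest other library. H2-DMb2, H2-Oa and H2-Ob were highest in another, Bmal1KO replicate 3, at 3.02 to 3.47 times the highest other library. Over all genes tested, 2.5% stood over 1.5 times every other library in Bmal1KO replicate 2 and 2.63% in replicate 3. This cut of 1.5 was chosen after the values were seen. In whole tissue, more cells that express a gene cannot be told apart from more RNA of that gene per cell.

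**Figure D1:**
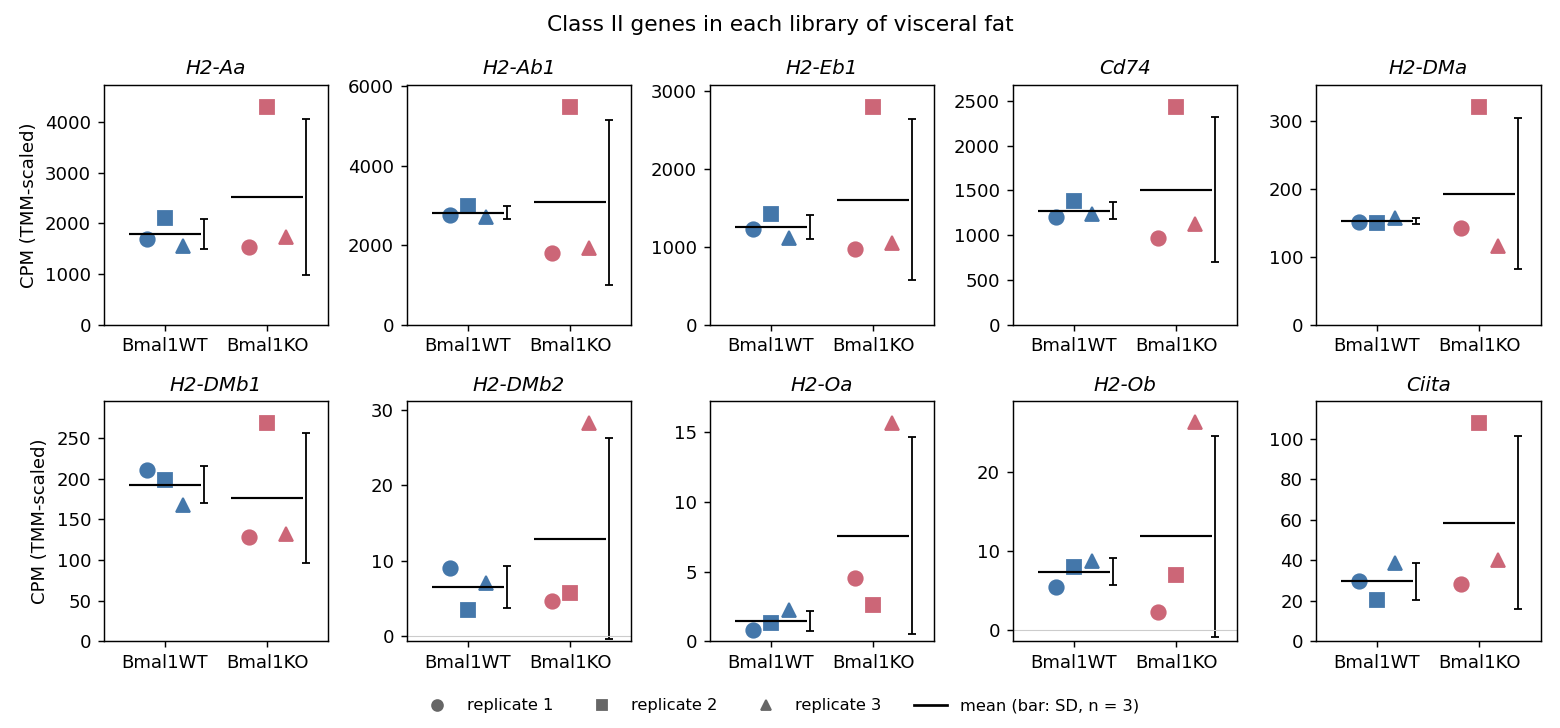
TMM-scaled CPM of each class II gene (y axis, linear, 1 panel per gene) by genotype (x axis); symbols are the 3 replicates, the line is the mean and the bar the SD. Bmal1KO replicate 2 (square) is the highest library for 7 genes and Bmal1KO replicate 3 (triangle) for H2-DMb2, H2-Oa and H2-Ob; over all genes tested these libraries are the highest for 18.6% and 17.8%.

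H2-Ab1, the beta chain of I-A (mm10 chromosome 17, 34257689 to 34269419), was at 2755, 2994 and 2697 CPM for Bmal1WT against 1799, 5481 and 1941 CPM for Bmal1KO. Bmal1KO replicate 2 lay above and the other Bmal1KO libraries below all Bmal1WT libraries, so the genotypes overlapped. The means were 2815 ± 158 CPM (SD, n = 3) and 3074 ± 2086 CPM, a log2 fold change of 0.13 (SE 0.37, edgeR adjusted p = 0.935). H2-Aa, its alpha chain partner (chromosome 17, 34282744 to 34287823), was at 1699, 2115 and 1555 CPM for Bmal1WT against 1543, 4303 and 1729.5 CPM in Bmal1KO. Its log2 fold change was 0.50 (SE 0.35, edgeR adjusted p = 0.674). Leaving out Bmal1KO replicate 2 turned it to -0.14. H2-Eb1, the beta chain of I-E (chromosome 17, 34305867 to 34316674), was at 1229.7, 1422 and 1115 CPM for Bmal1WT against 965, 2795 and 1051 CPM for Bmal1KO, giving a log2 fold change of 0.35 (SE 0.36, edgeR adjusted p = 0.783). The 3 chains thus had 1 library far above the rest and the remaining Bmal1KO libraries within or under the Bmal1WT range. H2-Ea had 0 counts in every library, and H2-Eb2, a further beta chain locus, had 9 counts in Bmal1KO replicate 1, 12 in replicate 3 and 0 in the other 4 libraries.

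Cd74, the invariant chain (chromosome 18, 60803848 to 60812652), followed the chains. It was at 1203, 1379 and 1237 CPM for Bmal1WT against 963, 2435 and 1131 CPM for Bmal1KO, and its log2 fold change was 0.25 (SE 0.31, edgeR adjusted p = 0.822). It too changed sign when Bmal1KO replicate 2 was left out, to -0.29. With each gene centred on its mean over the 6 libraries in log2 CPM, Cd74 and H2-Eb1 differed by a root mean square of 0.11 log2 units, and Cd74 and H2-Aa by 0.15. Among 10292 other genes of at least 5 CPM, those nearest to Cd74 by this measure over the 6 libraries were Alyref (0.0933 log2 units), Smox (0.12), Nkap (0.13), Phf11d (0.14) and Fnta (0.15). Each of these 5 was also highest in Bmal1KO replicate 2, Alyref at 9.97 CPM against 3.76 to 6.33 CPM in the other libraries.

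H2-DM is the editor that exchanges the invariant chain fragment for peptide. Its alpha and main beta subunits were both highest in Bmal1KO replicate 2, and the second beta gene in replicate 3. The alpha subunit H2-DMa (chromosome 17, 34119541 to 34139101) was at 152, 149 and 157 CPM for Bmal1WT against 142, 321 and 116 CPM for Bmal1KO, giving a log2 fold change of 0.34 (SE 0.32, edgeR adjusted p = 0.767). Bmal1WT libraries lay within a few percent of each other, while Bmal1KO libraries stood on both sides of them. Brd2, on the other strand, shares 10.4% of the exon bases of H2-DMa. The main beta subunit H2-DMb1 (chromosome 17, 34153072 to 34160230) was at 211, 199 and 168 CPM for Bmal1WT against 128, 268 and 132 CPM for Bmal1KO. It was the only member of negative log2 fold change (-0.13, SE 0.27, edgeR adjusted p = 0.900), and its Bmal1KO replicate 2 value was 1.27 times the highest other library. The second beta gene, H2-DMb2 (chromosome 17, 34143307 to 34151555), was at 9.01, 3.52 and 6.99 CPM for Bmal1WT against 4.66, 5.78 and 28.3 CPM for Bmal1KO, giving a log2 fold change of 0.99 (SE 0.65, edgeR adjusted p = 0.654). Bmal1KO replicate 3 stood alone here, and without it the log2 fold change was -0.32. H2-DMb1 and H2-DMb2 are near copies: 27.8% of the 38-base stretches of H2-DMb1 transcripts, the length of 1 read, also occur in H2-DMb2, and 26.2% the other way, so the split of reads between them is uncertain. H2-DMb2 counts were 1.77% to 4.26% of H2-DMb1 counts in 5 libraries and 21.4% in Bmal1KO replicate 3.

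H2-O, the inhibitor of H2-DM, was scarce. Its alpha subunit H2-Oa (chromosome 17, 34092340 to 34095234) gave 7, 11 and 21 counts for Bmal1WT against 30, 23 and 126 for Bmal1KO. In CPM it was at 0.799, 1.29 and 2.26 for Bmal1WT against 4.51, 2.60 and 15.6 in Bmal1KO, the only member whose genotypes did not overlap. The closest values were 21 counts in Bmal1WT replicate 3 and 23 in Bmal1KO replicate 2. Bmal1KO replicate 1, at 30 counts, had 30019 genes detected against 19009 to 20145 elsewhere. What this does to scarce genes was not tested. Of all genes tested, 7.83% had every Bmal1KO library above every Bmal1WT library, and 5.05% were higher at an unadjusted p under 0.05. H2-Oa was 1 of 10 members in each of these counts. Its log2 fold change was 2.37 (SE 0.72, unadjusted p = 0.00703, edgeR adjusted p = 0.414). With Bmal1KO replicate 3 left out the log2 fold change came to 1.27 (edgeR adjusted p = 0.744), and with replicate 1 left out to 2.63 (edgeR adjusted p = 0.106). Fitted without a filter on low counts, over 34517 genes, edgeR gave it an adjusted p = 0.0186; over all alternatives run, adjusted p ranged from 0.0186 to 0.744. An antisense gene, BC051537, shares 22.8% of the exon bases of H2-Oa, and without strand the reads there cannot be assigned.

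The beta subunit H2-Ob (chromosome 17, 34238903 to 34254414) was at 5.48, 7.97 and 8.72 CPM for Bmal1WT against 2.26, 7.02 and 26.3 CPM in Bmal1KO. Its lowest and its highest library were both Bmal1KO (log2 fold change 0.69, SE 0.68, edgeR adjusted p = 0.777), and without replicate 3 the log2 fold change was -0.66. In counts, H2-Oa and H2-Ob together came to 1.63% to 3.38% of H2-DMa and H2-DMb1 in 5 libraries and to 16.9% in Bmal1KO replicate 3. The genes nearest to H2-Ob in pattern were Slc13a3 (0.40 log2 units), Cenpn (0.40), Cnr2 (0.46), Adora2b (0.47) and Marco (0.48), all farther from it than the 5 nearest genes were from Cd74.

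Ciita, the master regulator (chromosome 16, 10480059 to 10528418), was at 29.9, 20.3 and 38.5 CPM for Bmal1WT against 28.3, 108 and 39.95 CPM in Bmal1KO. Bmal1KO replicate 2 was 2.69 times the next library, a wider gap than for any of the chains, and Bmal1KO replicate 1 lay inside the Bmal1WT range. The log2 fold change was 0.99 (SE 0.46, unadjusted p = 0.0611, edgeR adjusted p = 0.549) and 0.20 without Bmal1KO replicate 2. Nearest to Ciita in pattern were Itgb7 (0.25 log2 units), an integrin beta chain of leukocytes, then AU020206 (0.33), Efs (0.33), Slc25a13 (0.34) and Trim30a (0.34). The gene Dexi overlaps 3.45% of the exon bases of Ciita on the other strand.

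**Figure D2:**
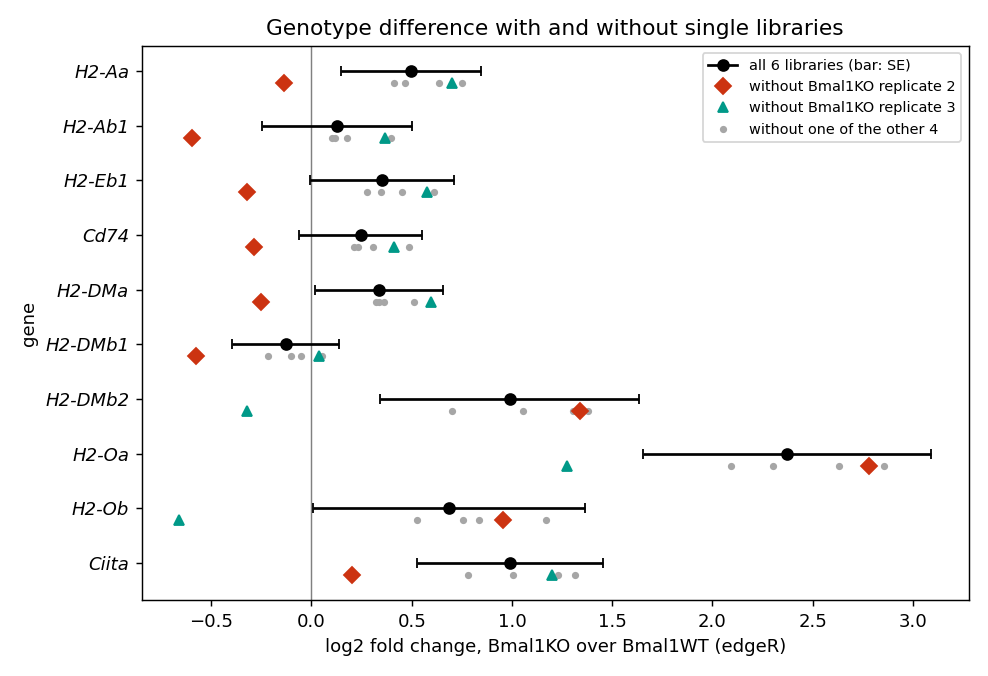
Log2 fold change of Bmal1KO over Bmal1WT (x axis) for each class II gene (y axis), from all 6 libraries (black, with SE) and with 1 library left out (coloured and grey). Without Bmal1KO replicate 2, H2-Aa, H2-Ab1, H2-Eb1, Cd74 and H2-DMa change sign; without Bmal1KO replicate 3, H2-DMb1, H2-DMb2 and H2-Ob do.

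Over the 10 members the median log2 fold change was 0.42, beside 0.02 over all genes tested, and 9 were above 0. Without Bmal1KO replicate 2 only 4 were above 0. The summed level of the members was 7296, 8292 and 6985 CPM for Bmal1WT against 5579.95, 15726 and 6211 CPM for Bmal1KO. The Bmal1WT sums lay between the Bmal1KO extremes. The 3 chains and Cd74 made up 94.2% to 95.5% of the sum in all 6 libraries.

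Per kilobase of annotated exon, the order of mean levels over the 6 libraries was H2-Ab1 (1147 CPM per kilobase), Cd74 (829), H2-Eb1 (735), H2-Aa (568), H2-DMb1 (109.7), H2-DMa (50.1), H2-DMb2 (5.56), Ciita (4.62), H2-Oa (3.21) and H2-Ob (1.79). From H2-Ab1 down to H2-DMb2 each gene was above the next in 6 of 6 libraries. Among the last 4, H2-DMb2 was above H2-Ob in 6 of 6 libraries, and no other pair kept its order throughout: H2-DMb2 was above Ciita in 2 of 6 libraries and above H2-Oa in 5, Ciita above H2-Oa in 4 and above H2-Ob in 5, and H2-Oa above H2-Ob in 3. The length used joins the exons of all annotated transcripts of a gene, and the order depends on it. It was 3798 bases for H2-Aa against 1679 for Cd74 and 1944 for H2-Eb1, and 3448 for H2-DMa against 1681 for H2-DMb1. In CPM without this division, H2-Aa was above Cd74 and H2-Eb1 in every library.

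Markers of the cells that carry class II were read beside these patterns. In Bmal1KO replicate 3, 9 of 10 tested B cell genes stood over 1.5 times every other library, beside 2.63% of all genes tested. In the other 5 libraries 0 B cell genes did. The summed B cell level was 134 to 180.0 CPM in Bmal1WT and 145, 181 and 557 CPM in Bmal1KO replicates 1 to 3. Cd37, a tetraspanin of B cells and other leukocytes and the most abundant gene of the list, was the exception, at 105, 103 and 115 CPM in Bmal1WT and 80.0, 142 and 189 CPM in Bmal1KO. Cd79b, a signalling chain of the B cell receptor, was at 94.7 CPM in Bmal1KO replicate 3 and at 3.16 to 17.5 CPM elsewhere; Cd22, an inhibitory receptor of B cells, was at 37.5 CPM and at 6.57 to 18.7 CPM. Pax5, Ms4a1, Blk and Cr2 had 0 counts in at least 1 library, none of them Bmal1KO replicate 3. Pax5 and Cr2, too low to test, were nearly as high in Bmal1KO replicate 1 (4.06 and 2.11 CPM) as in replicate 3 (4.71 and 2.36 CPM). Cxcl13, the chemokine that draws B cells into follicles, was at 291 CPM in Bmal1KO replicate 3 and at 10.9 to 31.3 CPM elsewhere. It was the only 1 of 5 listed lymphoid tissue genes with enough counts to test. In that library Ccl19 had 2 counts against 1 to 10 elsewhere, Madcam1 2 against 0 to 2, and Glycam1 16 against 0 to 9. Ccl21a had 0 counts in every library. H2-Oa, H2-Ob and H2-DMb2 were highest in Bmal1KO replicate 3 too, and how much of their level B cells account for was not tested.

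Macrophage markers did not single out Bmal1KO replicate 2. Their sum was 6683, 6031 and 4641 CPM in Bmal1WT and 4068, 8421 and 8304 CPM in Bmal1KO, close to each other in replicates 2 and 3. In replicate 2, 1 of 13 genes stood over 1.5 times every other library, beside 2.5% of all genes tested. C1qb, a chain of complement C1q and the most abundant of these markers, was at 3046 CPM in replicate 2 and 2429 CPM in replicate 3. The class II sum divided by the macrophage sum was 1.09, 1.37 and 1.51 in Bmal1WT and 1.37, 1.87 and 0.748 in Bmal1KO. The ratio was thus highest and lowest in Bmal1KO libraries of nearly equal macrophage sum. Dendritic cell markers summed to 332 to 339.9 CPM in Bmal1WT and to 252, 465 and 455 CPM in Bmal1KO. Of the 9 tested, 4 stood over 1.5 times every other library in replicate 2, beside the same 2.5% of all genes. Itgax, the integrin CD11c that macrophages of obese fat also carry, was at 199 CPM in replicate 2 and 267 CPM in replicate 3. Clec10a, a lectin of dendritic cells and macrophages, was at 172 and 109.9 CPM. Clec9a, a receptor of cross-presenting dendritic cells (named after its values were seen), was at 3.08, 1.17 and 1.40 CPM in Bmal1WT and 7.07, 16.2 and 9.43 CPM in Bmal1KO. The genotypes did not overlap, and the log2 fold change of 2.53 (SE 0.51) did not pass the test over all genes (edgeR adjusted p = 0.318). Flt3, the receptor of a dendritic cell growth factor (named likewise), was at 1.71, 1.76 and 0.323 CPM in Bmal1WT and 2.56, 3.96 and 2.61 CPM in Bmal1KO, again without overlap (log2 fold change 1.27, SE 0.72, edgeR adjusted p = 0.608). Of the 9 tested dendritic cell genes, only these 2 had every Bmal1KO library above every Bmal1WT library, as did 7.83% of all genes tested. The others overlapped, with log2 fold changes from -0.09 (Cd209a) to 1.04 (Ccr7), and the median of the list was 0.26. T cell genes were at their highest sum in replicate 2 (189 CPM, against 26.8 to 65.9 CPM in Bmal1WT and 86.9 and 136 CPM in the other Bmal1KO libraries). Of the 8 tested, 4 stood over 1.5 times every other library in replicate 2, as many as of the dendritic cell genes. For 6 of the 8, every Bmal1KO library was above every Bmal1WT library, beside 7.83% of all genes tested. No macrophage or T cell marker was at 0 in any library; of the dendritic cell markers Siglech was at 0 in Bmal1WT replicate 1. Adipocyte and endothelial markers were lowest in the libraries where class II genes stood apart, while mesothelial and stromal progenitor markers were not. The mesothelial sum was 341, 366 and 198 CPM in Bmal1WT and 463, 475 and 413 CPM in Bmal1KO. The stromal progenitor sum was 3513, 2748 and 2396 CPM in Bmal1WT and 3229, 3615 and 3516 CPM in Bmal1KO. The adipocyte sum was 22529, 25422 and 26036 CPM in Bmal1WT and 27843, 17025 and 13152 CPM in Bmal1KO, and the endothelial sum was 519, 340.0 and 738 CPM in Bmal1WT and 393, 233 and 259.8 CPM in Bmal1KO. The part of any of these cells in the class II levels was not tested.

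**Figure D3:**
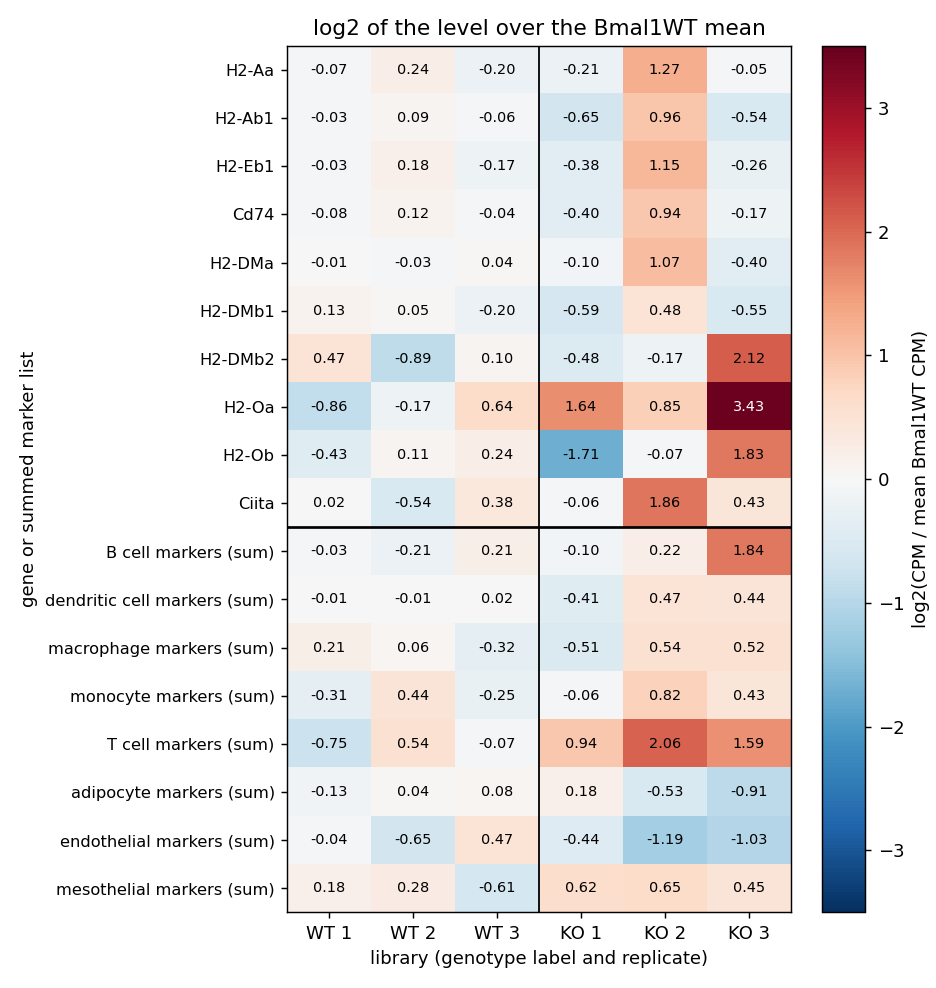
Log2 of the CPM over the Bmal1WT mean for each class II gene (upper rows) and for summed marker lists (lower rows) in each library (columns); colours and printed values are the same quantity. Bmal1KO replicate 2 is at 0.94 to 1.86 for the chains, Cd74, H2-DMa and Ciita, while H2-DMb2, H2-Oa, H2-Ob and the B cell sum are highest in replicate 3.

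Of the other genes of the pathway, 35 of 40 listed could be tested. None passed edgeR's test over all genes, 3 were higher and 0 lower at an unadjusted p under 0.05 (5.05% and 4.26% of all genes tested), and the median log2 fold change was 0.21. Among factors that control class II genes, 14 of 17 had a log2 fold change above 0, and those of smallest p were Spi1 (0.76, SE 0.25), Irf4 (1.11, SE 0.41) and Irf1 (0.68, SE 0.29), with edgeR adjusted p = 0.431, 0.465 and 0.515. Spi1 encodes PU.1, a factor of myeloid and B cells, and was at 21.1, 31.2 and 29.5 CPM in Bmal1WT and 31.3, 52.5 and 54.6 CPM in Bmal1KO. Irf1, a factor that interferon gamma induces, was at 56.8, 94.6 and 89.2 CPM in Bmal1WT and 92.2, 194 and 98.8 CPM in Bmal1KO, highest in replicate 2 as Ciita was. Ifng itself had at most 2 counts in any library, under the floor of 3 counts, too few for any difference to be seen. The X box factors Rfx5, Rfxap and Rfxank were at 1.40 to 19.1 CPM, and in none did the genotypes separate.

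Endosomal processing genes were abundant and differed little: 7 of 11 had a log2 fold change above 0, with a median of 0.15, and in no library did any stand over 1.5 times the rest. Ctss, the protease that trims the invariant chain, was at 2802, 2399.9 and 1796 CPM in Bmal1WT and 2267, 3045 and 2735 CPM in Bmal1KO. Those of smallest p were Ifi30, the lysosomal thiol reductase (0.27, SE 0.22), Marchf1, a ligase that removes class II from the surface (0.35, SE 0.30), and Ctsl, a further cathepsin (-0.28, SE 0.28), with edgeR adjusted p = 0.726, 0.736 and 0.778. Of 7 tested genes of costimulation and recognition, 6 had a log2 fold change above 0. Cd4, the class II co-receptor of T cells (1.585, SE 0.73), the ligand Cd86 (0.68, SE 0.34) and the receptor Cd40 (0.66, SE 0.44) had the smallest p, with edgeR adjusted p = 0.537, 0.561 and 0.660. Cd40 was highest in Bmal1KO replicate 2, at 47.3 CPM against 10.4 to 21.1 CPM elsewhere.

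Ratios between members within a library cancel most of the difference in level. H2-Ab1 had 1.62, 1.42 and 1.73 counts per count of H2-Aa for Bmal1WT against 1.17, 1.27 and 1.12 for Bmal1KO, and every Bmal1KO library lay under every Bmal1WT library, Bmal1KO replicate 2 included. H2-Eb1 to H2-Aa was 0.724, 0.672 and 0.717 in Bmal1WT and 0.625, 0.6495 and 0.608 in Bmal1KO. H2-DMb1 to H2-Aa was 0.124, 0.0941 and 0.108 in Bmal1WT and 0.0829, 0.0624 and 0.0763 in Bmal1KO. The other 6 members overlapped between genotypes in their ratio to H2-Aa. Of all other genes tested, 3.56% had a ratio to H2-Aa that was lower in every Bmal1KO library, and of those of at least 100 CPM on average, 2.35%. H2-Aa was made the reference after the values were seen, genes that vary together separate more easily in a ratio, and 3 libraries against 3 allow no exact permutation p under 0.1, so these ratios are a description, without a test.

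**Figure D4:**
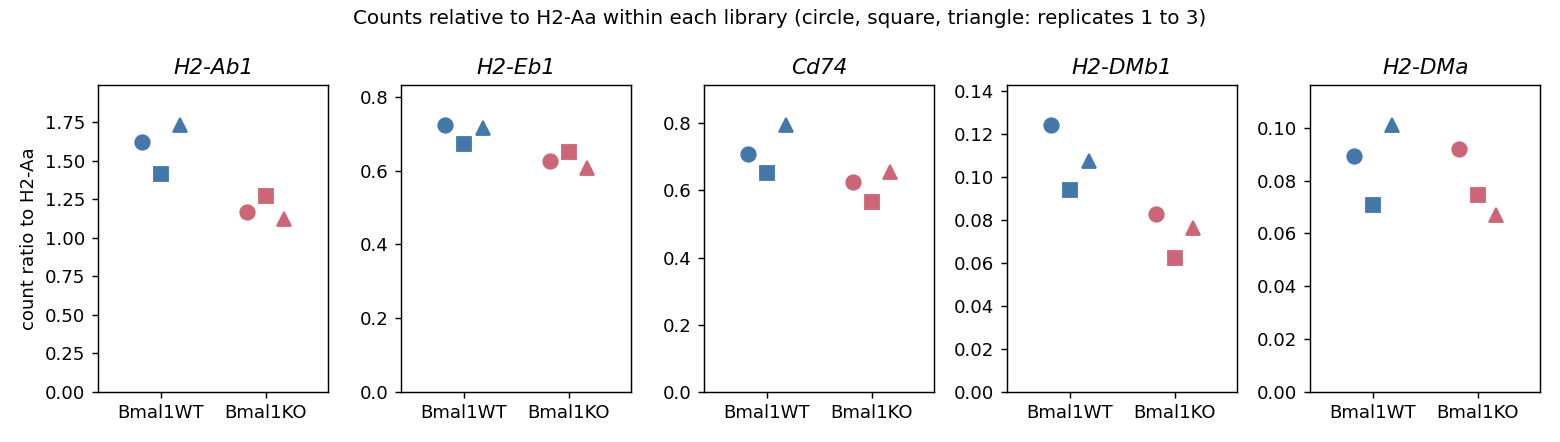
Counts of 5 class II genes divided by counts of H2-Aa in the same library (y axis, from 0) by genotype (x axis); symbols are replicates 1 to 3. The genotypes are apart for H2-Ab1, H2-Eb1 and H2-DMb1 and overlap for Cd74 and H2-DMa.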

How the data were processed

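Per the labels' protocols, RNA of snap-frozen visceral fat was extracted with a lipid tissue kit, and 2 ng was primed with oligo(dT), amplified, fragmented by transposase (Nextera XT) and sequenced as paired 38-base reads. Such libraries carry neither strand nor molecular identifiers, so amplified copies count as reads. The deposited values are raw counts for gene symbols that the authors obtained with STAR 2.7.3a on mm10 and featureCounts, per the submitters' processing notes; annotation, strand setting and handling of multi-mapping reads: not given in the sources used here.

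Counts were tested with edgeR 4.0.16 (R 4.3.3): filterByExpr, TMM scaling, robust quasi-likelihood F-test of Bmal1KO against Bmal1WT without covariates, Benjamini-Hochberg adjustment over 13859 genes, threshold 0.05. CPM use TMM-scaled sizes; 3 counts, taken as the floor, are 0.323 to 0.451 CPM. Coordinates, exon lengths and transcripts are GENCODE M21 (mm10), and promoters are RefSeq (GRCm38.p6). Replicate numbers come from the titles; separate animals are not stated, so p-values speak only of the spread among these libraries, which may be technical.

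The members and gene lists were chosen with earlier results of these data known. All members are named; of each pathway list up to 3 genes of smallest p; of marker lists up to 3 of the most abundant; and 5 genes of nearest pattern to Cd74, H2-Ob and Ciita. Other genes were named after their values were seen, among them Ctss, Rfx5, Rfxap, Rfxank, Ifng, Cxcl13, Clec9a, Flt3 and marker genes at 0. March1 and March8 were read as Marchf1 and Marchf8, and H2-Ea-ps was matched to no symbol. Alternatives were DESeq2 1.42.0, its size factors, library size alone, limma 3.58.1 voom with quality weights, other filters, a replicate block, and libraries left out.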

Additional observations from a re-analysis of the deposited data

How the results depend on the processing

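No class II gene was called under any of the 14 alternatives but 1: without a filter on low counts, 1 member (H2-Oa, log2 fold change 2.36) and 186 of all genes were called. Pathway genes were called under none. Over all genes, 0 were called with all libraries, 60 by DESeq2's Wald test, 0 by limma voom (1691 at an unadjusted p under 0.05, against 1290), 61 without Bmal1WT replicate 1 and Bmal1KO replicate 1 together, and 0 to 156 with 1 library left out: 1 without Bmal1WT replicate 1, 156 without Bmal1KO replicate 1 and 6 without Bmal1KO replicate 2. Same-numbered libraries correlated at -0.07, 0.09 and -0.03 in their deviations from group means, and differently numbered ones at -0.08 to 0.11. The labels do not say whether the numbers pair samples, and these correlations cannot settle it. With the replicate block 0 were called, and H2-Ab1 turned to -0.0803. With Bmal1WT replicate 1 and Bmal1KO replicate 1 both out, H2-DMb1 turned to 0.13. With 1 library left out, log2 fold changes ran from -0.14 to 0.75 for H2-Aa, -0.60 to 0.40 for H2-Ab1, -0.32 to 0.61 for H2-Eb1, -0.29 to 0.48 for Cd74, -0.25 to 0.595 for H2-DMa, -0.58 to 0.05 for H2-DMb1, -0.32 to 1.38 for H2-DMb2, 1.27 to 2.86 for H2-Oa, -0.66 to 1.17 for H2-Ob and 0.20 to 1.32 for Ciita. Signs changed without Bmal1KO replicate 2 for H2-Aa, H2-Ab1, H2-Eb1, Cd74 and H2-DMa, and without Bmal1KO replicate 3 for H2-DMb2 and H2-Ob. H2-DMb1 changed sign without Bmal1KO replicate 1 (0.0536) or replicate 3 (0.0365). The cause was not tested. All other member values kept their sign and their side of the threshold. H2-Oa had 7 to 126 counts per library, H2-Ob 15 to 212 and H2-DMb2 30 to 228.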
